A study of Homo sapiens with 6 samples.

Results

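The BCL2 family of apoptosis regulators was followed in RPE1 cells depleted of OFD1, a protein of centrosomes and centriolar satellites. The 10 members were chosen by name, as textbook members of the family: 4 anti-apoptotic genes (BCL2, BCL2L1, BCL2L2 and MCL1), 2 effectors (BAX and BAK1) and 4 BH3-only genes (BBC3, PMAIP1, BCL2L11 and BID). These were 10 of the 60666 genes of the table outside alternative and patch contigs, and 8 of them reached the mean of 1 FPKM (a level per transcript length and library size) over all samples that was required for testing. BCL2 and BCL2L11 lay below it.

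The cells were RPE1, a human retinal pigment epithelial line immortalised with telomerase, carrying a Tet-On hairpin against OFD1 (hTERT-RPE1-TOShOFD1). All 6 samples carried the hairpin. The 3 OFD1-depleted samples received 200 ng/mL doxycycline for 72 h. The 3 control samples are labelled as control at 72 h, and their labels name no doxycycline. No sample had doxycycline without the hairpin, so the effects of the drug and of the depletion cannot be told apart. The paper describes the samples of its RNA-seq heatmap as biological replicates, but nothing in the labels says that replicates came from separate cultures. The p-values therefore measure the spread between these samples only. RNA was taken from whole cultures, where fewer cells of a type and less RNA per cell cannot be told apart.

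BCL2 family proteins meet at the mitochondrial outer membrane. BAX and BAK1 form the pores that release cytochrome c and so start the caspase cascade. The anti-apoptotic members bind and hold them back, and the BH3-only proteins occupy the anti-apoptotic members or activate the effectors directly. Many of these proteins are controlled after transcription, by splicing, cleavage, phosphorylation or rapid turnover, none of which gene-level mRNA values show.

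OFD1 mRNA was 3.34, 3.62 and 3.44 FPKM in the control samples and 0.795, 0.763 and 1.43 FPKM in the OFD1-depleted samples, 28.7% of the control mean. Its log2 fold change was -1.75 ± 0.255 (SE; adjusted p = 0.000850, limma with Benjamini-Hochberg adjustment over 12025 genes). Epithelial and mesenchymal structural genes (keratins and vimentin) summed to 4485 to 4733 FPKM in the control samples and 3897 to 4325 FPKM in the depleted ones. VIM, nearly all of that sum, was 4192 to 4458 FPKM and 3588 to 3882 FPKM. KRT18 (111 to 123 and 141 to 189 FPKM) and KRT8 (140 to 151 and 153 to 218 FPKM) were higher in every depleted sample. KRT7 overlapped (20.1 to 21.3 and 15.8 to 35.7 FPKM), and KRT19 was at most 0.211 FPKM. Of 8 markers of mature pigment epithelium, only MITF and OTX2 reached 1 FPKM on average, and RPE65 was at most 0.209 FPKM. The sum of the 8 was 7.44 to 7.85 FPKM in the control samples and 9.88 to 12.4 FPKM in the depleted ones, so the groups did not overlap. The top sum was that of depleted replicate 2, in which BEST1 alone was 4.33 FPKM, against at most 0.0475 FPKM in any other sample. The part of these shifts in the results was not tested. The labels name retina as tissue, but photoreceptor and retinal neuron markers summed to at most 0.385 FPKM and 5 of 8, CRX, PDE6B and RCVRN among them, were at 0 in every sample. Of the blood and endothelial markers, which summed to 31.7 to 40.9 FPKM, only CD68 reached 1 FPKM, and CD3E and CDH5 were at 0. Mitochondrially encoded genes took 8.66% to 13.8% of all FPKM in the control samples and 15.6% to 19.3% in the depleted samples. With totals equalised without these genes, BAK1 was the only one of the 4 members called that lost its call (limma adjusted p = 0.0566), and BCL2L1, BBC3 and PMAIP1 passed at adjusted p-values of 0.00270, 0.0254 and 0.00247.

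OFD1-depleted replicate 2 stood apart. Its FPKM summed to 493510 against 408302 to 444337 in the other samples, and limma's array weights gave it 0.203 where the other samples had 0.643 to 3.68. Compared with the other depleted replicates, its values were a median of 0.344 higher on the log2 scale for mRNAs under 1500 bases and fell by 0.406 for mRNAs over 5000 bases. Member values without it stand beside the full ones.

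Of the 8 members tested, 4 passed the threshold, where 17.0% of all genes tested did. PMAIP1 and BCL2L1 were lower in OFD1-depleted cells (2 of 8, against 11.9% of all genes), and BBC3 and BAK1 were higher (2 of 8, against 5.07% of all genes). MCL1, BCL2L2, BAX and BID did not pass. The median log2 fold change of the 8 was -0.09, beside -0.03 over all genes tested. In 4 of the 8 the groups did not overlap, as in 36.1% of all genes tested. Both members below the filter also had groups without overlap, but no share over the genes below the filter was taken to set beside them. By class, the calls were 1 anti-apoptotic member (BCL2L1, lower), 1 effector (BAK1, higher) and 2 BH3-only members (PMAIP1 lower, BBC3 higher). These are too few to give a class a direction.

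**Figure D1:**
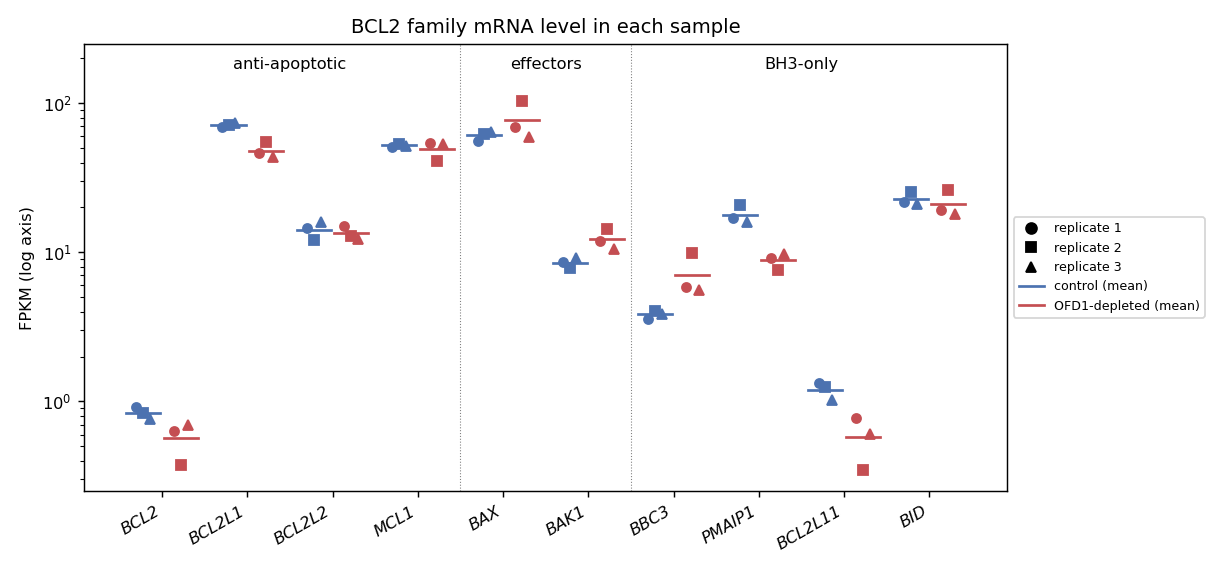
FPKM of each BCL2 family member (log axis) in every sample, with control samples in blue, OFD1-depleted samples in red, replicates by symbol and group means as lines. PMAIP1 and BCL2L1 lie lower in all 3 depleted samples, BBC3 and BAK1 higher, and replicate 2 is the farthest depleted point for BAX and BBC3.

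Among the anti-apoptotic members, BCL2L1 (chr20:31664452-31723989, minus strand, GRCh38) fell. It encodes Bcl-xL and, by alternative splicing, the shorter pro-apoptotic Bcl-xS, which the gene-level values do not separate. BCL2L1 was 69.5, 72.0 and 73.6 FPKM in the control samples and 46.5, 54.6 and 43.6 FPKM in the OFD1-depleted samples, a mean of 71.7 ± 2.08 against 48.2 ± 5.74 (SD, n = 3). The groups did not overlap, and the depleted mean was 67.3% of the control mean. Its log2 fold change was -0.58 ± 0.128 (SE; limma, Benjamini-Hochberg adjusted p = 0.0104). Without depleted replicate 2 it was -0.67 (limma adjusted p = 0.00173). Leaving out control replicate 3 ended the call, at -0.56 (limma adjusted p = 0.0550). The antisense gene ABALON shares 1735 of its 4197 exon bases and was at most 0.548 FPKM.

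MCL1 (chr1:150560895-150579738, minus strand), a short-lived protein that sequesters BAK1 and BIM, was 51.2, 53.5 and 52.1 FPKM in the control samples and 54.2, 40.8 and 53.3 FPKM in the depleted samples. The groups overlapped, and the low value was replicate 2. Its log2 fold change was -0.09 (limma adjusted p = 0.706) and turned to 0.04 (limma adjusted p = 0.783) without that replicate.

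BCL2L2 (chr14:23298790-23311751, plus strand) encodes Bcl-w. It was 14.6, 12.1 and 16.0 FPKM in the control samples and 15.0, 12.9 and 12.3 FPKM in the depleted samples, with groups that overlapped, and changed by -0.08 as a log2 difference (limma adjusted p = 0.746). Without depleted replicate 2 the change was -0.06 (limma adjusted p = 0.800), and without control replicate 3 it was 0.01 (limma adjusted p = 0.990). The value is uncertain, since the readthrough gene BCL2L2-PABPN1 on the same strand shares 815 of its 4840 exon bases. BCL2L2-PABPN1 was 12.2, 9.62 and 6.23 FPKM in the control samples and 7.36, 15.7 and 6.06 FPKM in the depleted ones. The sum of both genes was 23.6 ± 2.76 and 23.1 ± 5.17 FPKM (SD, n = 3), so the locus also showed overlapping groups when both were counted together.

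BCL2 itself (chr18:63123346-63320128, minus strand), the founding member, had the lowest mean level of the 10. It was 0.919, 0.842 and 0.763 FPKM in the control samples and 0.636, 0.377 and 0.692 FPKM in the depleted samples, 67.6% of the control mean. The groups did not overlap. In the fit without a filter its log2 difference was -0.52 ± 0.308 (SE; limma adjusted p = 0.492), and the exact two-sided permutation test gave p = 0.1, the smallest that 3 against 3 allows. Without replicate 2 the depleted mean was 0.664 FPKM against 0.841 FPKM.

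Both effectors had higher means in OFD1-depleted cells, and BAK1 passed the threshold. BAK1 (chr6:33572547-33580293, minus strand), which sits in the outer membrane of healthy mitochondria, was 8.63, 7.90 and 9.11 FPKM in the control samples and 12.0, 14.3 and 10.6 FPKM in the depleted samples. The groups did not overlap, and the mean rose 1.44-fold, from 8.54 ± 0.610 to 12.3 ± 1.87 (SD, n = 3). Its log2 fold change was 0.51 ± 0.148 (SE; limma adjusted p = 0.0356) and was 0.40 (limma adjusted p = 0.0419) without depleted replicate 2. The call rested on most of the libraries. Leaving out depleted replicate 1 gave an adjusted p of 0.0713 (limma), and leaving out control replicates 1, 2 and 3 gave 0.110, 0.112 and 0.0853, with log2 fold changes between 0.46 and 0.56.

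BAX (chr19:48954815-48961798, plus strand), which is mostly cytosolic until it is activated, was 56.1, 62.4 and 64.5 FPKM in the control samples and 69.3, 104 and 59.6 FPKM in the depleted samples. The groups overlapped. The highest value belonged to replicate 2, the library whose short mRNAs were high, and the canonical BAX mRNA of 795 bases was the shortest of the 10. Its log2 fold change was 0.31 ± 0.186 (SE; limma adjusted p = 0.295), and 0.08 (limma adjusted p = 0.656) without that replicate.

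Of the BH3-only members PMAIP1 fell and BBC3 rose. PMAIP1 (chr18:59899996-59904305, plus strand) encodes NOXA, which binds MCL1. PMAIP1 was 16.9, 20.8 and 16.1 FPKM in the control samples and 9.22, 7.59 and 9.74 FPKM in the depleted samples, 17.9 ± 2.50 against 8.85 ± 1.12 (SD, n = 3). Every depleted sample lay well under every control sample, and the depleted mean was 49.3% of the control mean. The log2 fold change was -1.01 ± 0.152 (SE; limma adjusted p = 0.00105). It passed the threshold in each of the 20 alternatives, with adjusted p-values of 0.000124 to 0.0191 (limma), and without depleted replicate 2 its log2 fold change was -0.91 (limma adjusted p = 0.00192).

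BBC3 (chr19:47220822-47232766, minus strand) encodes PUMA, which binds all the major anti-apoptotic members. BBC3 was 3.57, 4.02 and 3.88 FPKM in the control samples and 5.84, 9.93 and 5.55 FPKM in the depleted samples. The groups did not overlap, and replicate 2 was far above the other depleted samples. The mean rose 1.86-fold, from 3.83 ± 0.231 to 7.10 ± 2.45 (SD, n = 3), and 1.49-fold without replicate 2. The log2 fold change was 0.83 ± 0.212 (SE; limma adjusted p = 0.0212), and 0.56 (limma adjusted p = 0.0154) without that replicate. Leaving out control replicates 1, 2 and 3 gave adjusted p-values of 0.0658, 0.0589 and 0.0685 (limma) at log2 fold changes of 0.78, 0.86 and 0.84.

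BCL2L11 (chr2:111119378-111168445, plus strand) encodes BIM, a BH3-only protein that can activate the effectors. It was 1.33, 1.25 and 1.03 FPKM in the control samples and 0.780, 0.347 and 0.608 FPKM in the depleted samples, 48.1% of the control mean. The groups did not overlap. The fit without a filter gave a log2 difference of -0.99 ± 0.333 (SE; limma adjusted p = 0.203), and the exact two-sided permutation test gave its smallest possible p of 0.1. Without replicate 2 the depleted mean was 0.694 FPKM against 1.20 FPKM. The values are uncertain for a further reason. The antisense gene MIR4435-2HG, at a mean of 40.2 FPKM in the control samples and 46.0 FPKM in the depleted ones, shares 727 of the 6742 BCL2L11 exon bases. The libraries kept strand, but the strand setting of the counting is not stated.

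BID (chr22:17734138-17774770, minus strand), which caspase 8 cleaves to link death receptors with mitochondria, was 21.9, 25.3 and 21.1 FPKM in the control samples and 19.2, 26.3 and 18.1 FPKM in the depleted samples. The groups overlapped, and the log2 fold change was -0.12 (limma adjusted p = 0.668). Without replicate 2, which was the highest depleted sample, it was -0.28 (limma adjusted p = 0.107).

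**Figure D2:**
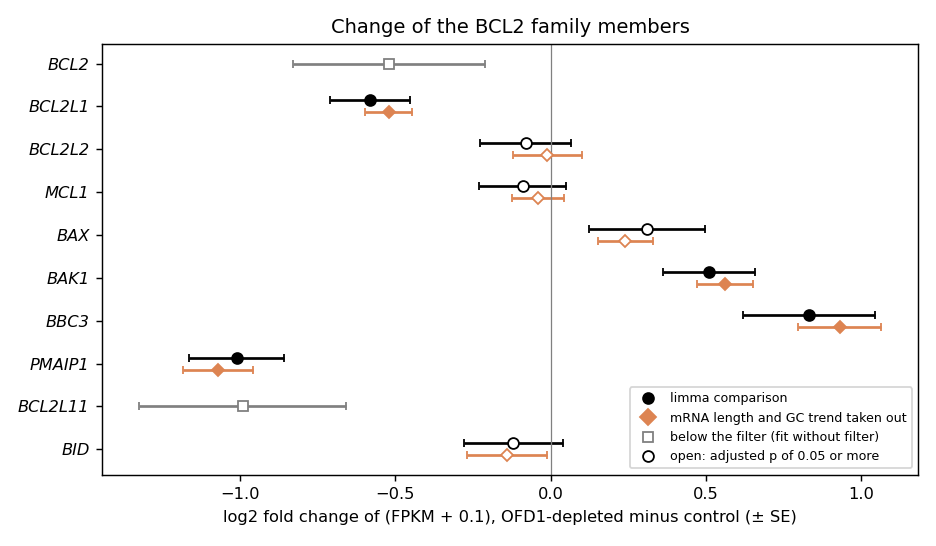
Log2 fold change of each member on the log2(FPKM + 0.1) scale, OFD1-depleted minus control, with standard errors, in black as fitted by limma and in orange after correction of each sample for mRNA length and GC content. Filled points are past an adjusted p of 0.05, and grey squares are the 2 members below the filter, from a fit without one.

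The promoters of the 4 members past the threshold are given because the transcription factors tested with the pathway lists bind promoters. Each is the RefSeq stretch from 250 bases before to 50 bases after the gene's start (GRCh38.p14, 5′ to 3′ on the gene's strand), at the listed start nearest to the canonical transcript. RefSeq promoters were matched for 8 of the 10 members, and BCL2L2 and MCL1 had no entry. Capitals mark matches, on either strand, to the motifs of AP-1 (TGANTCA), FOXO (TGTTTAC), ATF4 (TGATGNAA), CRE (TGACGTCA) and E2F (TTTGGCGC, TTTCCCGC, TTTGCCGC or TTTCGCGC).
PMAIP1: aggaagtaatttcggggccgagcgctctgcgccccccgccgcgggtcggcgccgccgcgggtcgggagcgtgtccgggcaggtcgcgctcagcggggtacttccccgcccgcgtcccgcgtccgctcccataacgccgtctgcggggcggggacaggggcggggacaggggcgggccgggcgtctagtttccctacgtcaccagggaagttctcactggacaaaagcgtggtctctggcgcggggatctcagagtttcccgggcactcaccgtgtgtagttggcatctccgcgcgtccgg
BCL2L1: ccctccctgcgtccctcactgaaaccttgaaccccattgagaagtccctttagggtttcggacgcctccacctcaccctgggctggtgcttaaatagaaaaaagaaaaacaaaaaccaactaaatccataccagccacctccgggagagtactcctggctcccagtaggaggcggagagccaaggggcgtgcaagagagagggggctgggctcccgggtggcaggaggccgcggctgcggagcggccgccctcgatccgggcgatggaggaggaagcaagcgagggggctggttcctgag
BBC3: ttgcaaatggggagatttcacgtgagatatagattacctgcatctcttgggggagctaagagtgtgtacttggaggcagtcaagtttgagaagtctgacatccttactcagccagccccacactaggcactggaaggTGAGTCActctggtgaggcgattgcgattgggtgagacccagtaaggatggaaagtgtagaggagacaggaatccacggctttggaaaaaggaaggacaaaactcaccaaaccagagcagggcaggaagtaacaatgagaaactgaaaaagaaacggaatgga
BAK1: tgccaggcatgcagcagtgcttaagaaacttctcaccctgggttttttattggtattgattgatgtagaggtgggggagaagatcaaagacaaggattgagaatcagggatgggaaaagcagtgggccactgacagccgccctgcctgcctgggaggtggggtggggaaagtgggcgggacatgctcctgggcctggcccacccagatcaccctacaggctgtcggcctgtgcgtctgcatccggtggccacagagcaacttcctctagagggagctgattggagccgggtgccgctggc
The windows are chr18:59899746-59900045 on the plus strand for PMAIP1 and, all on the minus strand, chr20:31722819-31723118 for BCL2L1, chr19:47232618-47232917 for BBC3 and chr6:33580227-33580526 for BAK1. The BBC3 window starts from a site 1468 bases upstream of the canonical transcript, the only one RefSeq lists there.

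The windows differed in base composition. PMAIP1 was 71.3% GC with 42 CG pairs, BCL2L1 was 61.3% with 16, BAK1 was 58.7% with 7, and BBC3 was 48.0% with 5. BBC3 held 1 AP-1 motif (TGAGTCA) at -113 to -107 from the start, a motif in 7.71% of 35116 promoters. No searched motif was found in the PMAIP1, BCL2L1 and BAK1 windows, nor in those of BCL2, BAX and BID. The BCL2L11 window (chr2:111120664-111120963, plus strand) held the FOXO motif, read as GTAAACA on the gene's strand, at -223 to -217, and 3.42% of promoters hold it. The ATF4, CRE and E2F motifs, in 3.62%, 1.85% and 3.31% of promoters, were in none of the 8. A match here describes letters, and its absence says only that the letters are not in this window.

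By level, the family was led by BCL2L1, BAX and MCL1. In the control samples the order of mean FPKM was BCL2L1 (71.7), BAX (61.0), MCL1 (52.2), BID (22.8), PMAIP1 (17.9), BCL2L2 (14.2), BAK1 (8.54), BBC3 (3.83), BCL2L11 (1.20) and BCL2 (0.841), and no neighbours in that order overlapped. In the OFD1-depleted samples it was BAX (77.5), MCL1 (49.4), BCL2L1 (48.2), BID (21.2), BCL2L2 (13.4), BAK1 (12.3), PMAIP1 (8.85), BBC3 (7.10), BCL2L11 (0.578) and BCL2 (0.569). There MCL1 overlapped BCL2L1, BCL2L2 overlapped BAK1, PMAIP1 overlapped BBC3 and BCL2L11 overlapped BCL2. The first 3 of these overlaps came from replicate 2 alone. In depleted replicates 1 and 3 MCL1 (54.2 and 53.3) lay above BCL2L1 (46.5 and 43.6), BCL2L2 (15.0 and 12.3) above BAK1 (12.0 and 10.6), and PMAIP1 (9.22 and 9.74) above BBC3 (5.84 and 5.55). BCL2L11 and BCL2 overlapped without it as well.

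Ratios of members within a sample do not depend on how the sample is scaled. They are given as descriptions, since they are built from the changes above. The anti-apoptotic members summed to 136, 139 and 142 FPKM in the control samples and 116, 109 and 110 FPKM in the depleted samples, without overlap. BCL2L1 made up 51.6% ± 0.494 of that sum in the control samples and 43.3% ± 6.03 in the depleted ones (SD, n = 3), and MCL1 37.6% ± 1.03 and 44.2% ± 5.89. The MCL1 shares overlapped, since replicate 2 stood at 37.5%.

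The effectors together, relative to the anti-apoptotic sum, were 0.475, 0.508 and 0.517 in the control samples and 0.699, 1.09 and 0.639 in the depleted samples. The depleted mean was 0.808 with replicate 2 and 0.669 without it, and the groups did not overlap either way. The effector sum itself did overlap, at 64.7, 70.3 and 73.6 FPKM in the control samples and 81.3, 118 and 70.2 FPKM in the depleted samples. BAX over BCL2L1 was 0.807, 0.866 and 0.876 in the control samples and 1.49, 1.90 and 1.37 in the depleted samples. BAK1 over BCL2L1 was, of the ratios plotted, the one in which the depleted replicates lay closest, at 0.124, 0.110 and 0.124 against 0.258, 0.262 and 0.243, a 2.14-fold difference of the means. BBC3 over PMAIP1 was 0.211, 0.193 and 0.241 in the control samples and 0.633, 1.31 and 0.570 in the depleted ones, so the lowest depleted value was above the highest control value. In contrast, the BH3-only sum relative to the anti-apoptotic sum was 0.329 ± 0.0380 and 0.339 ± 0.0584 (SD, n = 3), with overlap, while the BH3-only sum itself was 45.7 and 37.7 FPKM, also with overlap.

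**Figure D3:**
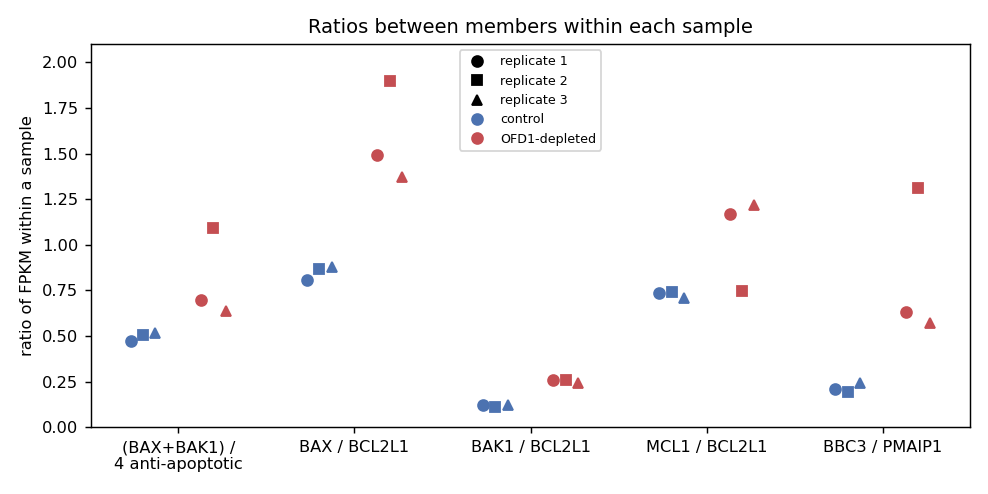
Ratios of FPKM between members within each sample, with control samples in blue, OFD1-depleted samples in red and replicates by symbol. BAK1 over BCL2L1 separates the groups with little spread (0.110 to 0.124 against 0.243 to 0.262), while MCL1 over BCL2L1 in depleted replicate 2 (0.747) lies next to the control samples.

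The trend of replicate 2 with mRNA length showed only partly in the members. Relative to the other depleted replicates on the log2 scale, it was higher by 0.69 for BAX, 0.79 for BBC3, 0.50 for BID, 0.34 for BAK1 and 0.28 for BCL2L1. For BCL2 and BCL2L11, whose canonical mRNAs of 6881 and 5098 bases were the longest of the 10, it fell by 0.68 and 0.82. PMAIP1, at 1899 bases, did not go with the trend and fell by 0.32, while BBC3, at 1846 bases, lay above it. BID (2177 bases), BAK1 (2170 bases) and BCL2L1 (2574 bases) also lay above the trend, and BCL2 and BCL2L11 below it. So did BAX (795 bases) lie above it, at 0.69 where genes of about its length had medians of 0.382 to 0.389. Over all genes tested with a known length (99.8%), the median log2 fold change was 0.106 for mRNAs under 1500 bases and -0.149 for those over 5000 bases, and -0.01 and -0.02 without replicate 2.

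After each sample was corrected for its trend with length and GC content, the same 4 members passed the threshold. The log2 fold changes were then -1.07 for PMAIP1 (limma adjusted p = 0.000180), -0.52 for BCL2L1 (0.00120), 0.93 for BBC3 (0.00106) and 0.56 for BAK1 (0.00192). BAX stood at 0.24 (limma adjusted p = 0.0788). TPM scaling, which equalises the summed level of the samples, moved the median of all genes from -0.03 to -0.176, and BAK1 with it, from 0.51 to 0.37 (limma adjusted p = 0.101). Relative to that median BAK1 was 0.54 higher under both scalings. This equality is set by the scaling, which shifts all genes of a sample nearly alike, and adds no evidence on BAK1.

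**Figure D4:**
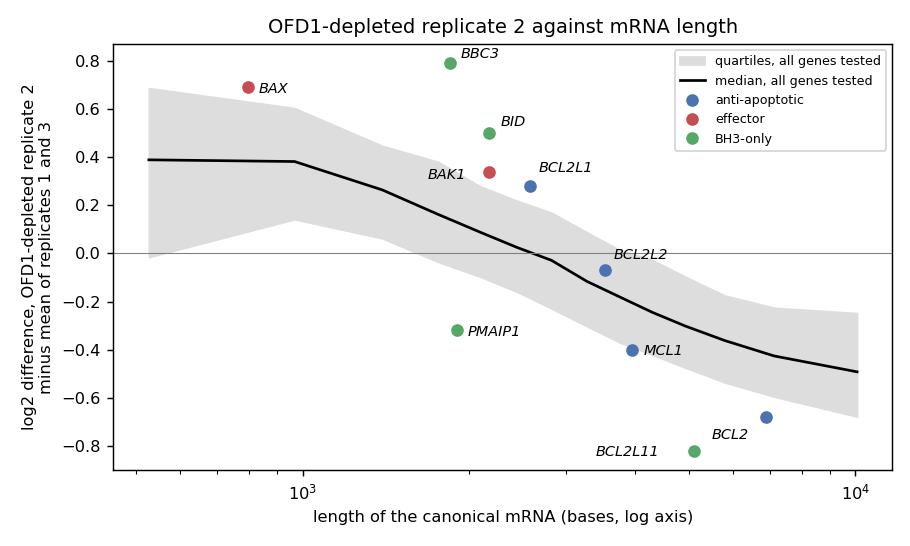
Log2 difference of OFD1-depleted replicate 2 from the mean of replicates 1 and 3, against the length of the canonical mRNA in bases (log axis), for the 10 members (points) and for all genes tested (black line, median; grey band, quartiles). The median falls with length, BBC3 (0.79) and BID (0.50) lie farthest above the band, and PMAIP1 (-0.32), BCL2L11 (-0.82) and BCL2 (-0.68) are among those below it.

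The rest of the pathway was examined in 6 lists, against 11.9% of all genes tested that were lower, 5.07% that were higher and a median of -0.03. At unadjusted p under 0.05, 19.1% of all genes were lower and 11.5% higher. Of 13 other BCL2 family genes 7 were tested and none passed in limma, while 1 had an unadjusted p under 0.05, with a median of -0.03. That gene was BMF, a BH3-only gene whose protein is tied to the actin cytoskeleton, at 11.6, 9.66 and 13.2 FPKM in the control samples and 17.3, 13.6 and 14.8 FPKM in the depleted samples. Its groups did not overlap, and its log2 difference was 0.41 (limma adjusted p = 0.0949). With 1 library left out it passed in 1 of 6 fits, the one without depleted replicate 2 (0.49, limma adjusted p = 0.0442). In the others the adjusted p reached up to 0.274 (limma). BCL2A1, BCL2L10, BIK, HRK, BCL2L14 and BCL2L15 were below the filter.

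Downstream of the mitochondria, 15 of 16 apoptosome and caspase genes were tested, 1 was lower and none was higher, with a median of -0.04. CASP2, an initiator caspase, was 6.98, 5.97 and 7.34 FPKM in the control samples and 4.64, 3.24 and 4.72 FPKM in the depleted samples (log2 fold change -0.69, limma adjusted p = 0.0224). Of 8 caspase inhibitor genes 6 were tested, 1 was lower and none higher, with a median of -0.05. BIRC5 (survivin), which also works in mitosis and is highest in dividing cells, fell from 34.8, 45.4 and 37.4 to 15.3, 18.7 and 14.3 FPKM (log2 fold change -1.28, limma adjusted p = 0.000224). For CFLAR, an inhibitor of caspase 8, the log2 difference was 0.43 (limma adjusted p = 0.0574). At unadjusted p under 0.05, each of these lists had 1 lower and 1 higher gene.

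Of 12 death receptor genes 8 were tested, 1 was lower and none was higher in limma, with a median of -0.03. At unadjusted p under 0.05, 3 genes of that list were lower and none was higher. For TNFRSF10D, 1 of these, the log2 difference was -0.42 (limma adjusted p = 0.0547). TNFRSF1A, a receptor of tumour necrosis factor, was 90.5, 78.5 and 84.8 FPKM in the control samples and 57.1, 65.2 and 55.5 FPKM in the depleted ones (log2 fold change -0.51, limma adjusted p = 0.0176). Of 11 genes of the outer membrane and of MCL1 turnover 10 were tested, 1 was lower and 1 higher, with a median of -0.08. At unadjusted p under 0.05, 2 were lower and 1 higher, GSK3B among the lower (log2 difference -0.40, limma adjusted p = 0.0794). USP9X, a deubiquitinase that stabilises MCL1, was lower by a log2 difference of -0.67 (limma adjusted p = 0.0257), and MTCH2, an outer membrane protein that receives cleaved BID, rose by 0.38 (limma adjusted p = 0.0466).

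Among 12 genes for transcription factors of the BH3-only genes 8 were tested, 3 were lower and 2 higher, and their median was 0.22. E2F1 fell from 20.3, 22.4 and 20.9 to 6.58, 6.90 and 6.19 FPKM (log2 fold change -1.68, limma adjusted p = 1.7e-05). FOXO3 fell from 10.7, 10.0 and 11.1 to 6.30, 4.16 and 5.62 FPKM (log2 fold change -0.99, limma adjusted p = 0.00206), and JUN with them (log2 difference -0.43, limma adjusted p = 0.0406). ATF4 and ATF3, factors of the integrated stress response, rose by 0.45 (limma adjusted p = 0.0310) and 0.87 as log2 differences (limma adjusted p = 0.0411). ATF3 was named after its values were seen. These mRNA levels do not show the activity of the factors.

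E2F1, FOXO3 and BIRC5 passed the threshold with any 1 library left out, and the other pathway genes past it did not. Without control replicate 1 the adjusted p-values were 0.0820 for CASP2, 0.112 for TNFRSF1A, 0.0833 for USP9X, 0.215 for MTCH2, 0.160 for ATF4, 0.174 for JUN and 0.116 for ATF3 (limma). Without control replicate 2 they were 0.0693 for USP9X, 0.0653 for MTCH2, 0.0554 for JUN and 0.134 for ATF3. Without control replicate 3 they were 0.110 for CASP2, 0.0739 for TNFRSF1A, 0.0824 for USP9X, 0.168 for MTCH2, 0.127 for ATF4 and 0.158 for JUN. Without depleted replicate 1 they were 0.0644 for TNFRSF1A, 0.116 for MTCH2, 0.110 for ATF4 and 0.137 for ATF3, and without depleted replicate 3 they were 0.0574 for TNFRSF1A, 0.0783 for MTCH2, 0.110 for JUN and 0.0553 for ATF3. The direction of each of these genes stayed as it was.

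**Figure D5:**
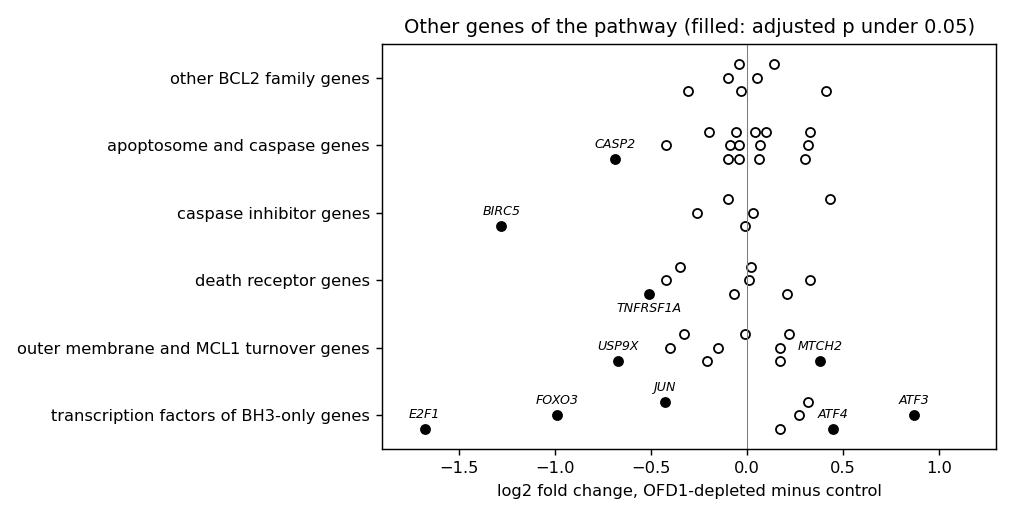
Log2 fold change (OFD1-depleted minus control) of every tested gene of the 6 pathway lists, 1 row of points per list, with genes past an adjusted p of 0.05 filled and named. E2F1 (-1.68) and BIRC5 (-1.28) lie farthest to the left, and the transcription factors hold calls on both sides.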

How the data were processed

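RNA-seq libraries of 6 samples (3 control, 3 OFD1-depleted) were grouped by their labels. Per the labels and methods, the authors aligned directional paired-end reads to GRCh38 with HISAT2 (version 2.0.5 in the submitters' processing notes) and deposited FPKM per gene from StringTie, whose version is not given in the sources used here. The table held 67130 genes, of which 6464 on alternative and patch contigs were at 0. It holds no read counts. Whole-read steps in low values pointed to roughly 37600000 to 44100000 fragments per sample, an approximation (11.2% to 14.0% of values on whole multiples, against 4.00% by uniform spread) used in no test.

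Values were compared as log2(FPKM + 0.1) with limma 3.58.1 (R 4.3.3, trend of variance on mean), in the 12025 genes averaging 1 FPKM or more over all samples. This scale understates changes of low genes. Two-sided p-values were Benjamini-Hochberg adjusted over all genes tested, with a threshold of 0.05. Exact permutation of FPKM was run for each member. The fit was tested on simulated data. Members and lists were chosen with earlier results of these data known. The genes named are the 10 members, overlapping genes, OFD1 and up to 4 genes past the threshold with the smallest p-values per list. BMF, CFLAR, TNFRSF10D, GSK3B and ATF3 were added after their values were seen. Some genes of the lists are counted but not reported here by name. Lengths and exons came from GENCODE annotation and promoters from RefSeq. Alternatives covered pseudocount, filter, scaling, trend, array weights, replicate block and each sample left out. Those on mRNA length and GC content were chosen after seeing the data.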

Additional observations from a re-analysis of the deposited data

How the results depend on the processing

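Of 160 values of the 8 tested members under 20 alternatives, 144 kept their direction and side of the threshold, 13 lost the call and 3 changed sign. MCL1 changed sign with array weights (0.03) and ranged from -0.16 to 0.04 with 1 sample left out, and BCL2L2 ranged from -0.19 to 0.01. The count of higher members was 1 under TPM scaling, without the variance trend and with totals equalised without mitochondrial genes, and 0 without a filter (limma; 2 at unadjusted p under 0.05). With 1 sample left out it was 0 to 2 (again 2 at unadjusted p under 0.05 without each control replicate), and that of lower members 1 to 2. Over all genes, 1429 were lower and 610 higher. The lower count was 2263 with array weights, 823 without a filter and 867 to 1741 with 1 sample left out. The higher count was 268 under TPM scaling, 1693 with array weights, 260 without a filter, 1093 after quantile normalization, 1090 with the length trend removed, 1383 with the length and GC trend removed and 244 to 1077 with 1 sample left out.

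The replicate block gave 1534 lower and 762 higher genes, 2296 in all, of which 1945 were past the threshold without it, and 2 lower and 2 higher members. Deviations of same-numbered samples correlated at 0.0579, 0.0481 and 0.0110 across genes, and those of differently numbered samples at -0.0799 to 0.0503. The labels give no pairing beyond the number, and whether same-numbered samples belong together was not tested. BCL2 and BCL2L11 were too low for the filtered test, and 3 samples per group limit every test.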

Other observations

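BEST1, a chloride channel gene of mature pigment epithelium, was 4.33 FPKM in OFD1-depleted replicate 2 and at most 0.0475 FPKM in the other 5 samples, and the cause was not tested. The same library had the highest value of the readthrough gene BCL2L2-PABPN1 (15.7 FPKM, against 6.06 to 12.2 FPKM elsewhere) and of MIR4435-2HG (58.1 FPKM, against 37.3 to 42.4 FPKM elsewhere).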
